A study of Mus musculus with 3 samples.

Results

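The genes described here are 10 regulators of blood stem and progenitor cells, Kit, Cd34, Runx1, Meis1, Mecom, Erg, Fli1, Hlf, Flt3 and Gfi1, out of 21851 protein-coding genes of the annotation. They were listed by name, with no threshold on a measured value. For each gene, every annotated start of a protein-coding transcript and all open regions in the gene body and 100 kb on either side were examined, in mm10 coordinates. The data come from DNase-seq of embryonic mouse liver at 13.5 days, an assay that maps accessible chromatin by where the nuclease DNase I cuts. The 3 libraries are numbered as biological replicates of 1 group. The mice are described as wild type on a C57BL/6N,129 background, with a single copy of the yeast artificial chromosome A20 (YAC), and all 3 libraries share that insert. The labels name no treatment, other genotype or control tissue, so no test between groups was possible and values are given for each library. All 3 name the same donor but each its own biosample, so the spread between them may be technical.

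Blood stem cells leave the embryonic vessels where they form and multiply in the fetal liver, which in mid-gestation is mainly an organ of red cell production. Stem and early progenitor cells are a small part of it. KIT, the receptor for stem cell factor, and FLT3 are tyrosine kinase receptors that carry survival and growth signals, and CD34 is a surface sialomucin of progenitors and endothelium. RUNX1, ERG, FLI1, MEIS1, HLF, MECOM and GFI1 are transcription factors that start or maintain the stem cell state. Runx1 is known for a distal and a proximal promoter and for enhancers in the long intron between them.

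The libraries differed in size: the peak lists held 34369, 122281 and 60862 peaks in replicates 1, 2 and 3, with 89836, 342756 and 156638 footprints (short protected stretches inside open chromatin). Signal is the authors' value for a peak, and its median was 1.16, 0.386 and 0.699, so signals of different libraries are not on 1 scale. A percentile here is the share of the library's peaks with a lower signal, with 0 where no peak was listed, and a promoter is called open where a peak was listed. Percentiles also depend on how many weak peaks a list holds. The 11005 regions away from starts that all 3 libraries shared had median percentiles of 45.5, 82.7 and 59.5. Which library is highest or lowest at a locus, and the SD over libraries, therefore include this difference between lists. Promoters of 9, 10 and 10 of the 10 erythroid markers held a peak in replicates 1, 2 and 3, where 54.0%, 67.3% and 56.4% of all protein-coding genes did. Of 9 hepatoblast markers 2, 8 and 6 had one, the fewest in replicate 1, which also had the fewest peaks. Endothelial markers were open in 3, 6 and 4 of 10 cases, mesenchymal ones in 3, 5 and 3 of 6, megakaryocyte ones in 0, 4 and 2 of 6, macrophage ones in 0, 2 and 1 of 5 and lymphoid ones in 0, 1 and 0 of 5. None of 5 mast cell markers had a peak in any library. In whole tissue, few cells with an open region and many cells with a weakly open one cannot be told apart.

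Promoters of 4 of the 10 genes, Runx1, Kit, Hlf and Meis1, had a peak in all 3 libraries, which 51.4% of protein-coding genes did. Replicates 1, 2 and 3 held a promoter peak for 7, 10 and 5 members, where the shares over all protein-coding genes were 54.0%, 67.3% and 56.4%. The median percentiles of the members' strongest promoters were 23.3, 67.2 and 2.37, and those of all protein-coding genes 20.7, 77.1 and 39.1. With 10 genes, the counts in replicates 1 and 3 were near the background. Without replicate 3, 7 members had a peak in every library used. Over all protein-coding genes, 2.43% had one in replicates 1 and 2 and not 3, besides the 51.4% in all 3. With windows of 2500 bp in place of 1000 bp, 7 members had one in all 3 libraries, because Mecom, Fli1 and Flt3 then gained a peak in replicate 3. The share over all genes was not computed for the wider windows.

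Runx1 had the strongest promoter in each library. It led with a mean percentile of 89.2 ± 6.40, before Kit with 81.7 ± 8.51, Hlf with 73.0 ± 14.3 and Meis1 with 70.0 ± 19.5 (SD, n = 3). Neighbours in this order differed by less than the larger of their SDs, and Hlf and Meis1 changed places in replicate 3. The other 6 were lower: Flt3 at 29.2 ± 33.3, Fli1 at 28.7 ± 31.0, Cd34 at 23.0 ± 39.8, Erg at 22.2 ± 34.5, Gfi1 at 19.5 ± 33.9 and Mecom at 18.9 ± 19.6 (SD, n = 3). Among these 6 no order held beyond the spread. In each library the lowest of the first 4 stood above the highest of these 6, as the plot of promoter percentiles shows. In replicate 2, where every member had a peak, these were Meis1 at 86.9 and Cd34 at 68.9. In replicates 1 and 3 several of the 6 had no peak and count as 0.

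**Figure D1:**
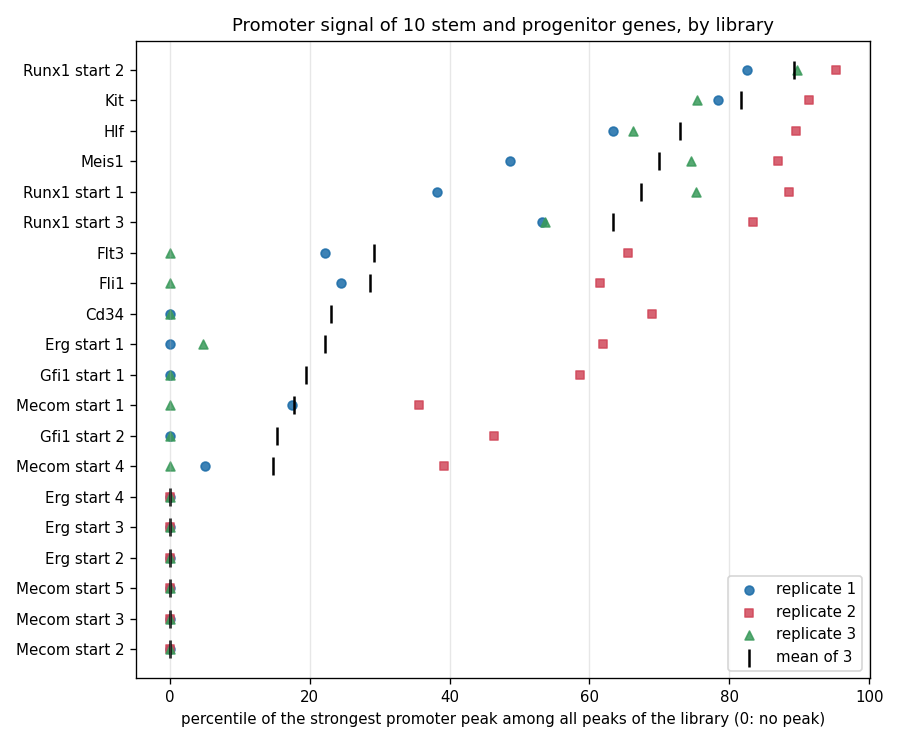
Each row is 1 promoter of the 10 genes, and the horizontal axis is the percentile of its strongest peak among all peaks of the library, with 0 for no peak. Coloured symbols are the 3 libraries and the black bar their mean; starts are numbered along the gene from the most upstream. The 6 rows at the bottom, 3 starts each of Mecom and Erg, have no peak in any library. Replicate 2, which has the longest peak list, is highest in every row with a peak.

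Kit was the receptor gene with the most open promoter. Its gene (chromosome 5, 75574916 to 75656722, plus strand) has a pair of close starts, joined here as 1 promoter. The promoter signals were 2.68, 3.92 and 1.82 in replicates 1, 2 and 3, at percentiles of 78.4, 91.4 and 75.4, with 7, 9 and 7 footprints in the window. All 3 libraries were high, with the strongest peak centred at 6, -4 and 6 bp from a start. The 250 bases before the first start are shown because a footprint recurs at their end. Capitals mark bases inside a footprint in all 3 libraries, on RefSeq's sequence for mm10.
Kit, bases before the start, chr5:75574666-75574915, plus strand: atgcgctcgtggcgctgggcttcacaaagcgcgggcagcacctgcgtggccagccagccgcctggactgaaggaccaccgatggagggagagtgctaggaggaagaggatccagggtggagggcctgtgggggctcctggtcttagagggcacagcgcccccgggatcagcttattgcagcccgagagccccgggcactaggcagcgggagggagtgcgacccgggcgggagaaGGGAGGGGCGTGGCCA
Of these bases 16 lay in footprints of every library, directly before the start. The stretch is GC-rich, at 69.2%, with 17 CpG sites. The SP word GGGCGG began at position 224 and was covered by no footprint.

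Within the gene and 100 kb on either side, Kit had little that recurred away from its promoter, and regions farther out were not examined. Distal regions are those more than 1000 bp from any start in the basic gene annotation. Of 12 at Kit, 1 was found in all 3 libraries. It lay in an intron 33215 bp from the start (chr5:75608081-75608180), with signals of 0.605, 0.802 and 0.665. Another 4 regions were in replicates 2 and 3 alone, 3 of them in introns at 5065, 14849 and 49535 bp. The strongest of these, at 49535 bp, stood at percentiles of 64.7 and 54.9. Of the 500 genes of nearest length, 25.2% had fewer shared distal regions than Kit.

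Flt3 (chromosome 5, 147330741 to 147400489, minus strand) showed a weaker promoter that replicate 3 lacked. Its signals were 0.694 and 0.597 in replicates 1 and 2, at percentiles of 22.2 and 65.5. In replicate 3 no position of the window was listed with a false discovery rate of 0.05 or less. The lowest rates in replicates 1 and 2 were 0.000359 and 9.96e-06. The intron of Flt3 was nevertheless open in replicate 3: a region 11908 bp into the gene (chr5:147388441-147388720) had signals of 1.53 and 2.35 in replicates 2 and 3, at percentiles of 83.4 and 79.4, and no peak in replicate 1. A region 18888 bp into the gene had 1.13 and 1.20 and likewise none in replicate 1. Which library lacked a peak thus differed between promoter and intron.

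The window of Flt3 held 25 distal regions, the most among the 10 loci, of which 3 were found in all libraries. None of these 3 had a Flt3 start as its nearest start. They lay 107158, 76808 and 68738 bp downstream of the start, and the nearest gene was Cdx2 for the first and Urad for the others. The first (chr5:147293221-147293440) had signals of 1.57, 2.09 and 1.14, at percentiles of 62.5, 86.8 and 66.2, the second had percentiles of 68.0, 84.3 and 52.0, and the last, in a Flt3 intron, 44.3, 80.8 and 39.1. The starts of Pan3, Pdx1, Cdx2 and Urad fall in the window, so its regions need not belong to Flt3. The plus strand of the first is shown because footprints of all 3 libraries, in capitals, cover a word of CTCF, the factor of loop anchors, from position 90.
Flt3, 107158 bp downstream: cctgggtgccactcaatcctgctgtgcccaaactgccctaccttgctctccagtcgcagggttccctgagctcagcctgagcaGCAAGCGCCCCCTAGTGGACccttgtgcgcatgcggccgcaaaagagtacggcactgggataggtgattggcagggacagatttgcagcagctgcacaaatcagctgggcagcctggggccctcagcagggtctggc

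Cd34 (chromosome 1, 194938819 to 194961279, plus strand) had a promoter peak in replicate 2 alone, with a signal of 0.674 at percentile 68.9 and 4 footprints. In replicate 3 the window held 6 bp of listed positions, with a lowest false discovery rate of 0.049, and in replicate 1 none. Its strongest region was distal. A region 59048 bp upstream (chr1:194879681-194879860) had signals of 2.90, 3.35 and 2.17, at percentiles of 80.4, 90.5 and 78.1. That is a mean of 83.0 ± 6.56 (SD, n = 3), above the promoter in every library. It lies between genes, has the Cd34 start as its nearest, and held 4 footprints in each library. Its plus strand is printed because 59 of its 180 bases fell in footprints of all 3 libraries, the most among the sequences printed here; capitals mark them.
Cd34, 59048 bp upstream: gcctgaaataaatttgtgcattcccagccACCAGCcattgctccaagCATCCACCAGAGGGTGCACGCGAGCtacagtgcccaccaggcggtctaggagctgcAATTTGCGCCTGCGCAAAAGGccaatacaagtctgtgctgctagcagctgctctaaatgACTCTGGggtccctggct
None of the blood factor words searched (GATA, ETS, RUNX, MEIS) occurred in it, and 1 E-box word, CAGCTG at position 148, lay outside every footprint. The CTCF words searched were absent too, but words were matched exactly and near matches were not counted.

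Runx1 (chromosome 16, 92601466 to 92826149, minus strand) had the highest promoter percentile and the most shared distal regions of the 10 genes. Its annotation has 3 starts: a distal one at 92826149, a proximal one at 92697328 and a nearby one at 92696125, whose windows overlap. The distal promoter had signals of 0.940, 2.53 and 1.80 in replicates 1, 2 and 3, at percentiles of 38.2, 88.5 and 75.2. The main proximal promoter had 3.17, 8.08 and 5.36, at 82.5, 95.3 and 89.6. Both were open in every library, and the proximal promoter was the stronger in 3 of 3, by mean percentiles of 89.2 ± 6.40 and 67.3 ± 26.1 (SD, n = 3). At the last start the strongest peak (signals of 1.25, 1.52 and 0.768) lay at -652, -636 and -696 bp from it, in the stretch shared with the window of its neighbour. Footprints in the windows numbered 3, 10 and 6 at the distal and 9, 11 and 10 at the proximal promoter.

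The bases before both starts are set side by side because they differ in composition. They are written 5′ to 3′ along the gene, from the minus strand, with footprints of all 3 libraries in capitals.
Runx1 distal promoter, chr16:92826150-92826399: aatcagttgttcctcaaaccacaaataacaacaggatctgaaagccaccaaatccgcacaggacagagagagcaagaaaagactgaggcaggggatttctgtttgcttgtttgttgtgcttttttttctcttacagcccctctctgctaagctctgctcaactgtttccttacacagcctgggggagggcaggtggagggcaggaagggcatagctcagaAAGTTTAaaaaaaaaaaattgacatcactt
Runx1 proximal promoter, chr16:92697329-92697578: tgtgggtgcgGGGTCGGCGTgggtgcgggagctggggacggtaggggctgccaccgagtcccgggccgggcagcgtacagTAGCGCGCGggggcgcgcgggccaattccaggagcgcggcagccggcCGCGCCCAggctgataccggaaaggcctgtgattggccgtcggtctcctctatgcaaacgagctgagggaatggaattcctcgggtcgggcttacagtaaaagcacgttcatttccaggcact
The distal stretch holds 1 CpG site and 44.8% GC, the proximal one 27 CpG sites and 67.2% GC. Footprints of every library covered 7 bases of the distal and 27 of the proximal stretch. The distal stretch has a RUNX word (TGTGGT on the plus strand) at position 18, outside all footprints, and an ETS word (CTTCCTG on the plus strand) at position 201, under a footprint in replicate 2. None of the words searched occurred in the proximal one.

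The intron between both Runx1 promoters held the strongest distal regions of the gene. The first, 1483 bp before the proximal start (chr16:92698701-92698920), had signals of 4.03, 7.28 and 3.92, at percentiles of 88.2, 94.8 and 86.0. The next, 24388 bp after the distal start (chr16:92801641-92801880), had 1.98, 7.12 and 5.89, at 70.1, 94.6 and 90.6. The last of the leading 3, 110438 bp after the distal start (chr16:92715601-92715820), had 1.88, 6.01 and 6.29, at 68.4, 93.8 and 91.3. Replicate 1 was lowest at the latter pair and not at the first. The plus strands of all 3 follow, with footprints of all libraries in capitals.
Runx1, 127338 bp after the distal start: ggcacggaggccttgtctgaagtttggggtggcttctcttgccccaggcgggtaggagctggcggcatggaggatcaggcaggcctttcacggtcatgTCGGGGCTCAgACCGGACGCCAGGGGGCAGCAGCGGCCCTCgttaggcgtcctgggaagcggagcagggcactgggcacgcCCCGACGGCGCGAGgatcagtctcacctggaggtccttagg
Runx1, 24388 bp after the distal start: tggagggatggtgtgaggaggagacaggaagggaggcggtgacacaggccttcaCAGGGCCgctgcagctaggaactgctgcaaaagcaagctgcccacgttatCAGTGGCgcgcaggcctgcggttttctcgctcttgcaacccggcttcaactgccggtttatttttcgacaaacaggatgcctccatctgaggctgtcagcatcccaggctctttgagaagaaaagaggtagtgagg
Runx1, 110438 bp after the distal start: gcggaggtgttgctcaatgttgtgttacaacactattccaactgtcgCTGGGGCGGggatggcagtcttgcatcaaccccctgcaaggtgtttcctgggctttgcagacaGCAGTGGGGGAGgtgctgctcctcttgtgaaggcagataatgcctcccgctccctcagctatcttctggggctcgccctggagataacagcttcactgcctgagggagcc
The region at 24388 bp held a word for each of 5 factor families in 240 bases: ETS from position 25, GATA from 101, RUNX from 121, E-box from 188 and MEIS from 197. A footprint touched the GATA word in 3 of 3 libraries, the RUNX word in replicates 2 and 3, the ETS word in replicate 2, the E-box word in replicate 3 and the MEIS word in none. The region at 110438 bp had GATA words at positions 145 and 192, the second under a footprint in replicate 2, and an SP word under footprints in all 3 libraries. The region beside the proximal promoter had no GATA, ETS or RUNX word.

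Of 24 distal regions at Runx1, 8 were found in all 3 libraries and 6 of these lay inside the gene. The other 5 lay 3898, 7188 and 61198 bp after the distal start, 57752 bp before it and 260268 bp after it. The region 57752 bp upstream (chr16:92883761-92884040) had signals of 1.03, 4.66 and 4.59, at percentiles of 43.2, 92.4 and 87.9. That at 3898 bp (chr16:92822141-92822360) had 1.75, 4.17 and 5.02, at 66.0, 91.8 and 88.9, so both were lowest in replicate 1. The density of shared distal regions was 1.88 per 100 kb, against 0.404 over the genome. Of the 500 genes of nearest length, 96.6% had fewer shared distal regions, and their median was 1. In the map of the locus the shared regions gather between the promoters and at the distal end, while the gene body beyond the proximal promoters holds 2 distal regions, each of 1 library.

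**Figure D2:**
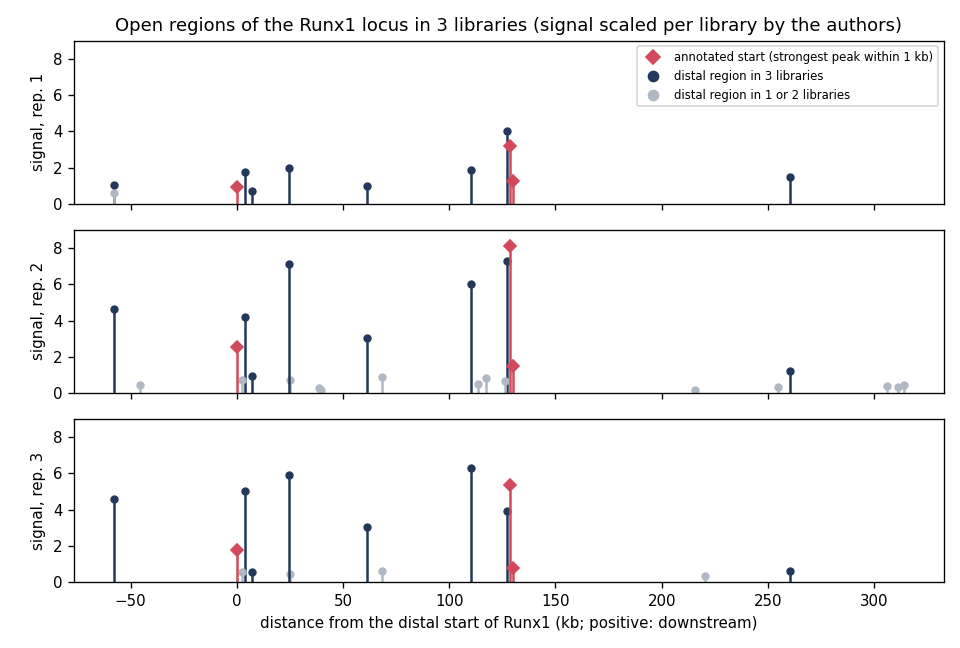
Signal of each open region (vertical axis, the authors' scale per library) against distance from the distal start of Runx1 in kb, 1 panel per library. Red diamonds are annotated starts, dark circles distal regions of all 3 libraries and grey circles regions of 1 or 2. The regions at 24388 and 110438 bp are higher than the distal promoter (the diamond at 0) in all 3 panels.

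Erg and Fli1 encode related factors of the ETS family that are active in blood stem cells and in endothelium. Erg (chromosome 16, 95359169 to 95586593, minus strand) had few promoter peaks, while its distal regions recurred. Of 4 promoters, 3 (starts at 95530365, 95524603 and 95459245 to 95459348) had no peak and no position with a false discovery rate of 0.05 or less in any library. The most upstream, at 95586593, had signals of 0.535 and 0.277 in replicates 2 and 3, from peaks 952 and 815 bp inside the gene, and none in replicate 1. Yet 6 of 19 distal regions were found in all 3 libraries, or 1.40 per 100 kb, and 91.4% of the 500 genes of nearest length had fewer.

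The 6 shared regions of Erg were of low to middle rank. By mean percentile the highest lay 18918 bp upstream (chr16:95605421-95605600), with signals of 1.60, 1.15 and 0.540 and percentiles of 63.2, 79.6 and 37.1. The regions at 244961 and -72408 bp from the start had 50.5, 76.7 and 47.9 and 35.6, 78.2 and 45.3. A region 29168 bp upstream had percentiles of 38.8, 65.3 and 8.21, and one 15783 bp inside the gene, the only one in the gene body, 13.8, 64.7 and 7.44. For 3 of the 6 the nearest start belonged to Erg, for 2 to Ets2 and for 1 to Kcnj15, and the data do not assign them to a gene. A pair of regions in an intron, 146662 and 147232 bp from the first start, was present in replicates 2 and 3 only, with signals of 0.695 and 1.08 and of 0.691 and 0.962.

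Fli1 (chromosome 9, 32422204 to 32542861, minus strand) had a promoter peak of 0.728 and 0.528 in replicates 1 and 2, 655 and 654 bp inside the gene, and none in replicate 3. Replicate 3 had no listed position in the window. The start at 32542861, which only the comprehensive annotation holds, had a peak in replicate 2 alone, of 0.420. Of 22 distal regions 3 were found in all libraries and 9 in 2, all 9 in replicates 2 and 3. A region 65846 bp upstream (chr9:32607321-32607560) was the strongest outside replicate 1, with signals of 0.952, 4.42 and 5.01 and percentiles of 38.8, 92.1 and 88.9. A region 48506 bp upstream (chr9:32590001-32590200) varied less, with percentiles of 47.7, 85.2 and 65.1. The last shared one, 191054 bp downstream and nearest to Kcnj5, had 29.1, 67.5 and 22.2. The plus strand of the region 48506 bp upstream is printed because 26 of its bases, in capitals, form 1 run under footprints of all 3 libraries.
Fli1, 48506 bp upstream: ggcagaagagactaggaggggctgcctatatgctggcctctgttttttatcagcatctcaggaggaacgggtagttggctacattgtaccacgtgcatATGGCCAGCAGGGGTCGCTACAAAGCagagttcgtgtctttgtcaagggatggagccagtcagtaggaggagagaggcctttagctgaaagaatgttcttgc
It has 1 GATA word, TTATCA at position 47, with no footprint on it in any library. Of the endothelial markers Cdh5, Stab2, Lyve1 and Emcn had no promoter peak in any library, while Plvap and Kdr had one in all 3. Their part in the Erg and Fli1 values was not tested.

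Meis1 and Hlf, a TALE homeobox factor and a PAR bZIP factor, had promoters open in all 3 libraries and as many shared distal regions as the median of genes of like length. Meis1 (chromosome 11, 18879817 to 19018985, minus strand) had promoter signals of 1.14, 2.10 and 1.73, at percentiles of 48.7, 86.9 and 74.5, and replicate 1 was lowest. Hlf (chromosome 11, 90336536 to 90390895, minus strand) had 1.61, 2.90 and 1.14, at 63.4, 89.5 and 66.2. Its window held 4, 12 and 6 footprints, and that of Meis1 1, 9 and 4. Of 13 distal regions at Meis1 2 were in all libraries, and 48.0% of the genes of like length had fewer. The stronger lay 1516 bp upstream (chr11:19020381-19020620), next to the promoter, with signals of 1.22, 2.27 and 1.86. It held a RUNX word that a footprint touched in 3 of 3 libraries. The other, 141124 bp downstream, had 0.728, 0.726 and 0.505. Starts that only the comprehensive annotation holds had a peak in replicate 2 alone, of 0.399 at Meis1 and 0.326 at Hlf. Both peaks are also counted among the distal regions, which were set by the basic annotation.

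At Hlf 1 of 7 distal regions recurred in all libraries, where 25.4% of the genes of like length had fewer, and it outranked the promoter. It lies 27206 bp upstream (chr11:90417981-90418220) between genes, with signals of 2.44, 3.15 and 2.28, at percentiles of 76.0, 90.0 and 78.9. The mean of 81.6 ± 7.42 (SD, n = 3) compares with 73.0 ± 14.3 at the promoter, and the region was the higher in 3 of 3 libraries. Its plus strand is shown for its composition, with footprints of all libraries in capitals.
Hlf, 27206 bp upstream: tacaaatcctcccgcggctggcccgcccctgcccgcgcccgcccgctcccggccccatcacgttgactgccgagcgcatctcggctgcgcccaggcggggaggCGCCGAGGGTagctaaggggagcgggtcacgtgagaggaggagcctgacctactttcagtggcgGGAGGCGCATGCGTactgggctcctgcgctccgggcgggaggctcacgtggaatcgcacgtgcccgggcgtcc
It is 72.5% GC, holds 3 SP words and none of the GATA, ETS, RUNX and MEIS words searched. The E-box words searched, CAGCTG and CAGATG, were absent too. Another E-box form, CACGTG, was not searched and does occur in the sequence. The Hlf start is the nearest, and the start of Mmd also falls in the window of the locus.

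Mecom and Gfi1 encode zinc finger factors, the first of which gives the MDS1-EVI1 and EVI1 proteins from separate starts. Mecom (chromosome 3, 29951296 to 30548008, minus strand) is the longest of the 10 genes and had the lowest mean promoter percentile and the lowest density of shared distal regions. Of 5 promoters, 3 had no peak and no listed position in any library. The most upstream (start at 30509733) had signals of 0.627 and 0.267 in replicates 1 and 2, from peaks 909 and 432 bp inside the gene. The promoter at 30013156 to 30013505 had 0.392 and 0.295, from peaks 819 and 23 bp inside the gene. Replicate 3 had no promoter peak, though 37 bp at the most upstream start were listed, with a lowest false discovery rate of 0.0264. The 1 distal region shared by all libraries lay 1232 bp after that start (chr3:30508361-30508640), with signals of 1.12, 1.41 and 0.526, outside the promoter window. Shared distal regions numbered 0.126 per 100 kb, beside 0.404 over the genome, but the single region equals the median of 1 in the 500 genes of nearest length, of which 37.8% had fewer. Replicates 1 and 2 alone held another 3 distal regions of the locus, 2 of them 4758 and 5508 bp upstream of the start. Of the starts held by the comprehensive annotation only, that at 30011439 had 0.392 and 0.274 in replicates 1 and 2 and that at 30548008 no peak. The 0.392 is the same peak as at 30013156 to 30013505, since it falls in both windows.

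Gfi1 (chromosome 5, 107716657 to 107726036, minus strand) had promoter peaks in replicate 2 alone, with signals of 0.486 and 0.354 at its 2 promoters (starts at 107725805 and 107724343). Neither replicate 1 nor replicate 3 had a listed position in those windows. Its 1 shared distal region lay 33436 bp upstream in an intron of Evi5 (chr5:107759081-107759400), and was stronger than the promoters. It had signals of 0.784, 1.33 and 1.81, at percentiles of 28.4, 81.7 and 75.4, with 2, 4 and 3 footprints. Blood enhancers of Gfi1 are known on this upstream side.

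Over the 10 loci, 144 distal regions were found, 27 of them in all 3 libraries, 40 in 2 and 64 in replicate 2 alone. The shared 27 were 18.8% of the distal regions, and over the genome 11.6% of 94808 were shared. Their density was 0.761 per 100 kb over 3546 kb, 1.89 times that of the genome. It was 1.51 times without Runx1, 1.67 times without Erg and 2.34 times without Mecom. Only 4 of the 10 loci had more shared distal regions than the median of the genes of like length, namely Runx1, Erg, Fli1 and Flt3. Without replicate 1, regions found in both other libraries numbered 63. Over the genome 17235 distal regions were found in replicates 2 and 3 and not 1, beside 11005 in all 3. The members' shared regions had median percentiles of 47.7, 82.5 and 52.0, and all 11005 shared distal regions 45.5, 82.7 and 59.5.

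**Figure D3:**
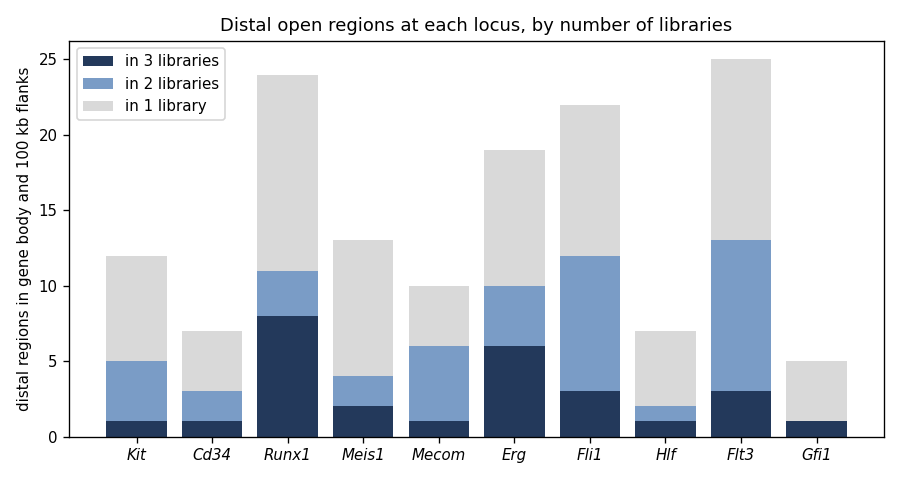
Bars give the number of distal regions (vertical axis) in the gene body and 100 kb flanks of each gene, split by how many libraries held the region. Runx1 with 8 and Erg with 6 have the most regions in all 3 libraries, and Flt3 with 25 and Runx1 with 24 the most in all; no bar corrects for the length of the locus.

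Where the shared regions lay varied between loci. Inside the gene bodies there were 10 of the 27, of which 6 at Runx1. A member's start was the nearest start for 19. To set libraries side by side, each was ranked among the 11005 shared distal regions alone, a scale chosen after the values were seen. Over the genome 57.8% of these regions ranked higher in replicate 1 than in replicate 3, and at the member loci 16 of 27 did, which is near that share. Within the set all 6 regions of Erg and all 3 of Flt3 ranked higher in replicate 1, by medians of 18.3 and 22.5 points. At Runx1 2 of 8 did, and the single regions of Kit and Gfi1 ranked lower in replicate 1, with differences of -24.5 and -47.6 points. On percentiles among all peaks of a library, 44.4% of the members' regions were higher in replicate 1, against 35.4% over the genome. With 1 library on either side these differences were not tested.

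**Figure D4:**
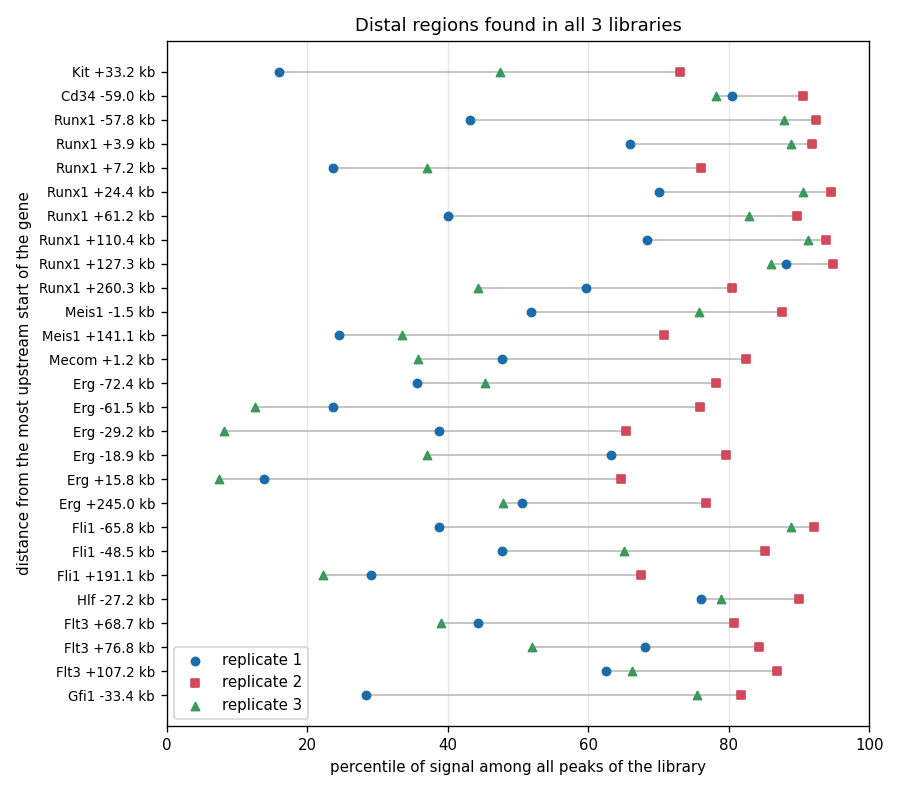
Each row is 1 of the 27 distal regions found in all libraries, named by gene and distance from its most upstream coding start, and the horizontal axis is its percentile in each library. Replicate 2, which has the longest peak list, is highest in every row. Replicate 3 (triangles) lies to the right of replicate 1 (circles) in most Runx1 rows and to the left of it in most Erg rows.

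At promoters the libraries differed too. Replicate 3 lacked the peaks of Mecom, Fli1 and Flt3 that both others had, a pattern of 2.43% of protein-coding genes, though its nearest peaks fell within 2500 bp of their starts. Erg lacked one in replicate 1 alone, as did 4.49% of genes, and no member lacked one in replicate 2 alone, which 0.0137% did. Cd34 and Gfi1 were open in replicate 2 alone, as were 8.98% of genes. Replicate 3 listed more peaks than replicate 1. Among the 40 distal regions of 2 libraries, 36 lay in replicates 2 and 3 and 4 in replicates 1 and 2, where the genome has 88.3% and 11.2%. Hepatoblast markers also varied, at 2, 8 and 6 of 9, and their part in these differences was not tested.

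CpG density was low at the promoters without a peak, and it overlapped between those open in all libraries and those open in fewer. Across 20 promoters of the 10 genes, 6 had a peak in all libraries, which 42.6% of 27486 promoters of protein-coding genes had. Another 8 had one in 1 or 2 libraries and 6 in none. Those open in all libraries include the Runx1 start at 92696125, whose strongest peak lies in the stretch shared with its neighbour's window. Without replicate 3, 10 promoters had a peak in every library used, and with windows of 250 bp 5 had one in all 3 libraries. The share over all promoters was not computed for these settings. The median CpG density was 45.9 sites per kb in the first kind, 50 in the second and 9.25 in the last, beside 24.5 over all promoters. The 6 promoters without a peak, all of Mecom and Erg, had 6.00 to 19.0 sites per kb. Gfi1, with 64.5 and 55.0, and Fli1, with 61.5, were CpG-rich and open in 1 or 2 libraries. The distal promoter of Runx1 had 19.5 sites per kb, below the median of all promoters, and was open in all 3 libraries.

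**Figure D5:**
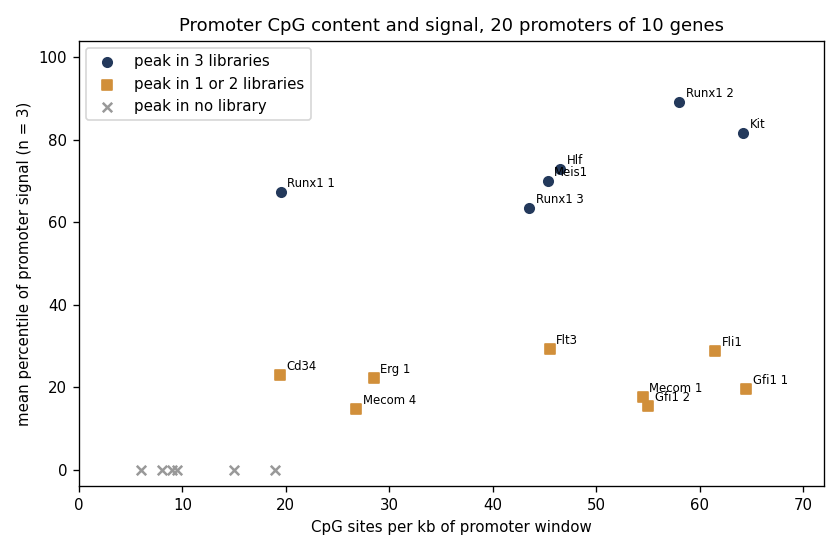
Each point is 1 of 20 promoters, with CpG sites per kb of its window on the horizontal axis and the mean percentile of its signal over 3 libraries on the vertical axis. Dark circles (peak in 3 libraries) stand above all others at every CpG density, the distal start of Runx1 (Runx1 1) at the far left of them, and the 6 promoters without a peak sit below 20 sites per kb.

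Footprints were found in nearly all shared distal regions of the members: 26 of 27 held one in all 3 libraries, or 96.3%, beside 85.4% over the genome. The median number was 2, 4 and 2 in replicates 1, 2 and 3, against 2, 4 and 3 over the genome. The exception was the region 141124 bp downstream of the Meis1 start, without a footprint in replicate 3. Bases under footprints of every library were most numerous at Cd34, with 59 bases, and beside the proximal Runx1 promoter, with 54.

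Words for factors, several of them members themselves, were counted in 300 bp around the centre of each shared distal region, on both strands. Of the 27 regions, 8 lie at Runx1 and 6 at Erg, and the shares were not split by locus. GATA words (AGATAA or TGATAA) occurred in 11 of 27 member regions, or 40.7%, and in 28% of all shared distal regions. RUNX words (TGTGGT or TGCGGT) occurred in 12, or 44.4%, beside 28.3%. Under a footprint of at least 1 library, each was found in 8 regions, or 29.6%, beside 12.8% for GATA and 12.0% for RUNX. The ETS words of ERG and FLI1 (CAGGAAG or CCGGAAG) were in 4, or 14.8%, beside 18.7%, and the MEIS word (TGACAG) in 5, or 18.5%, beside 21.7%. The HLF words (TTACGTAA or TTACATAA) were in 0, beside 0.854%. The GFI1 word (AATCACNGC) was in 1, beside 0.636%, and the EVI1 word of MECOM (CAAGATAA, in which the GATA word AGATAA is contained) in 2, beside 1.19%.

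The remaining words were near or below the general share. E-box words (CAGCTG or CAGATG) were in 11, or 40.7%, beside 40%, KLF (CCACCC) in 6, or 22.2%, beside 31.3%, and SP (GGGCGG) in 5, or 18.5%, beside 20.5%. The NFE2 and AP1 word (TGAGTCA) was in 0, beside 6.42%, and the CTCF word in 3, or 11.1%, beside 17.0%. A shorter CTCF word, AGGNGGC, chosen after the sequences were seen, was in 10, or 37.0%, beside 45.5%. In 9 regions, or 33.3%, it lay under a footprint of at least 1 library, beside 35.1%. Among the leading regions whose word positions were read, footprints of all 3 libraries touched it at 3 loci. These were beside the proximal Runx1 promoter (position 120), downstream of Flt3 and 1232 bp after the Mecom start. Words were matched exactly, so sites that differ from a word by a base, also under footprints, were not counted. With 27 regions these shares are descriptions, and a match is not evidence of binding.

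In the 250 bp before each start, 6 of 20 member promoters had a GATA word, or 30.0%, beside 16.7% of 27481 promoters, and 5 a RUNX word, or 25.0%, beside 17.8%. ETS words were in 4 of 20, beside 16.3%. SP words were in 4 of 20, beside 36.0%, and E-box words in 2 of 20, beside 23.6%. Promoters of 1 gene share that gene, and 9 of the 20 belong to Mecom and Erg.

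Other genes of the stem and progenitor programme, 53 on a list that overlaps some marker lists, had open promoters about as often as protein-coding genes in general in replicate 1 and in all libraries together, and more often in replicates 2 and 3. Promoter peaks were found for 28, 45 and 38 of them in replicates 1, 2 and 3, or 52.8%, 84.9% and 71.7%, and for 27 in all 3. The shares over all protein-coding genes were 54.0%, 67.3% and 56.4%, and 51.4% in all 3. The 10 members, at 7, 10 and 5, had the higher share in replicates 1 and 2 and the lower in replicate 3. The list's median percentiles were 10.5, 76.3 and 30.3, each below that of all protein-coding genes. The highest were Zfpm1, the GATA1 cofactor FOG1, at 99.6 ± 0.487, Kmt2a, a histone methyltransferase, at 97.8 ± 1.70, and Lyl1, a bHLH factor related to TAL1, at 97.5 ± 2.70 (SD, n = 3). Genes with no peak in any library included Cd48, Csf1r, Emcn, Il7r, Ly6a, Ptprc and Slamf1, among them the stem cell markers SCA-1 (Ly6a) and CD150 (Slamf1). Gata2, a factor of stem cells, had a peak in replicate 2 alone, with a signal of 1.19. It was chosen after its values were known.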

How the data were processed

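DNase-seq of 3 libraries of 1 group was analysed. The authors deposited peaks and their signal per library, derived from alignments to mm10, per the notes in their listing of files. The caller and the scale of the signal were not stated in these sources, so libraries were compared by percentile, which itself depends on the length of the list. The deposited q-value files give a false discovery rate per interval of positions and list none above 0.05. Footprints carry a constant 0.01 and were used as intervals only. Read totals were not used here, so the depth is unknown and no counting interval is given for peaks.

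The longer of the 2 peak lists per library was used, on chromosomes 1 to 19, X and Y. Peaks that overlapped or abutted were merged across libraries. Starts came from protein-coding transcripts of the GENCODE M21 basic annotation, were joined within 1000 bp and given 1000 bp on either side. A peak belonged to a promoter with at least 1 bp. Distal regions lay more than 1000 bp from any start of the basic annotation, of every gene type. Distances run from the most upstream coding start to the region's midpoint. Sequences are RefSeq's for the same build; a footprint of a library overlaps a word by at least 1 bp. Python 3.11.15, bedtools 2.31.1 and matplotlib 3.10.9 were used, and the interval functions were tested on simulated data.

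The members and gene lists were chosen with earlier results of these data known. Named were all members, their leading 3 shared distal regions by lowest percentile over the libraries, and the 3 highest genes and those without peaks of the wider list, of which 1 is not reported here. Further regions were chosen after their values were seen. No significance test was run. Alternatives were the shorter peak list, equal numbers of the strongest peaks, other window widths, flanks and overlaps, and leaving out each library.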

Additional observations from a re-analysis of the deposited data

How the results depend on the processing

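Leaving out each replicate in turn gave 4 to 7 members and 6 to 10 promoters with a peak in every library used, against 4 and 6, and the highest values came without replicate 3. Shared distal regions numbered 27 to 63, against 27, with 63 without replicate 1. The share of them with a footprint in every library used ran from 81.0% to 96.8%, against 96.3%, and was 100% on the shorter peak list and with equal numbers of the strongest peaks. Promoter windows of 2500 bp gave 7 members and 9 promoters, and the shorter list 3 and 4. Both stricter peak choices left 18 shared distal regions. Shares over all genes or over the genome were not computed for these settings. The mean percentile of a member's strongest promoter moved by more than its SD for 3 members with equal numbers of peaks (Kit, Runx1 and Hlf), for 2 on the shorter list (Kit and Meis1) and for Mecom with the wider window. The SDs of the weaker promoters are large, and several of these promoters lost every peak without moving by more than that: the mean percentile was 0 for Fli1 and Mecom on the shorter list, for Cd34, Erg and Gfi1 with equal numbers of peaks, and for Erg and Fli1 with windows of 250 bp. Read depth is unknown, so a promoter without a listed peak is not shown to be closed. No paired analysis was possible because there is 1 group.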
